A study of Mus musculus with 18 samples.

Results

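The BCL2 family genes that set survival and death in mouse eosinophils were followed here: the pro-survival genes Bcl2a1a, Bcl2a1b, Bcl2a1d, Mcl1, Bcl2l1 and Bcl2, the BH3-only genes Bcl2l11 and Bid, and the effector genes Bax and Bak1. These 10 genes were taken, by matching Ensembl identifiers to their symbols, from a table of 54446 genes, and all 10 passed the filter on low values in every comparison. Eosinophils were washed from the peritoneal cavity of Il5Tg mice of strain NJ.1638, which the sample labels give as C57BL/6, and all of them, the controls included, were kept for 18 h with apoptotic cells (ACs) at a ratio of 5 to each eosinophil. The ACs were thymocytes of wild-type mice treated with dexamethasone. In the Type 1 experiment 3 libraries each were made from eosinophils with ACs alone, with E. coli and ACs, with IFN-γ and ACs, and with IFN-γ, E. coli and ACs. For this last group the study describes E. coli as given after IFN-γ, and the interval is not given in the sources used here. In the IL-4 experiment 3 libraries each were made with ACs alone and with IL-4 and ACs. After the culture the eosinophils were isolated again with magnetic beads against Siglec-F, a surface protein of mouse eosinophils. The study calls its replicates biological, and its figure on eosinophils with ACs alone gives each lane as a different mouse. The labels do not tie a library to a mouse, so p-values measure the spread between these libraries. The age of the Il5Tg mice and the cells that express the transgene are not given in the sources used here. Eosinophils without ACs are not analysed here, so every change below is that of a stimulus in cells that already had ACs.

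In the intrinsic pathway of apoptosis, BAX and BAK open pores in the outer mitochondrial membrane and release cytochrome c. The pro-survival proteins BCL2, BCL-XL (encoded by Bcl2l1), MCL1 and A1 (encoded by the Bcl2a1 genes) hold BAX and BAK in check, and the BH3-only proteins, among them BIM (encoded by Bcl2l11) and BID, bind and disable the pro-survival proteins or activate the effectors. Eosinophils live only a short time without cytokines such as IL-5, and MCL1 and A1 are known as short-lived proteins. The values below are of RNA, and the amounts of these proteins were not measured.

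The mouse carries several near-identical copies of A1, and 3 of them are members. On GRCm38 they lie on chromosome 9 within 484.5 kb: Bcl2a1d at chr9:88723285-88731914 (minus strand), Bcl2a1a at chr9:88956900-88962419 (plus strand) and Bcl2a1b at chr9:89199209-89207827 (plus strand). Over 519 coding bases Bcl2a1a and Bcl2a1b were 97.9% identical with 11 differences, Bcl2a1a and Bcl2a1d 98.7% with 7, and Bcl2a1b and Bcl2a1d 98.8% with 6. Libraries were made by CEL-Seq2, which reads near the 3′ end of a transcript, so the coding part of the last exon shows how little there is to tell the copies apart. It spans chr9:88962172-88962270 in Bcl2a1a, chr9:89207582-89207680 in Bcl2a1b and chr9:88723434-88723532 in Bcl2a1d, each 99 bases long, and is printed below from GRCm38 with GENCODE annotation, 5′ to 3′, with the single base that is not the same in all 3 copies in capitals.
Bcl2a1a: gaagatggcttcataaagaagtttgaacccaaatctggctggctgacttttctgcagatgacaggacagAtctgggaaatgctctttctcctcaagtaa
Bcl2a1b: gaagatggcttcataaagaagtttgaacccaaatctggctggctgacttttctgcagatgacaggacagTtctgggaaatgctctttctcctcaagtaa
Bcl2a1d: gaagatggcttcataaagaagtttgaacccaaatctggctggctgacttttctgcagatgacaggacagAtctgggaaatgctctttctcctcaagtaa
Of all 50-base windows in the last 400 bases of the transcript, 57.3% in Bcl2a1a, 58.4% in Bcl2a1b and 84.3% in Bcl2a1d occur letter for letter in another of the 3 copies. The window of 50 bases was chosen here and is not a measured read length. In the processing that names TopHat2 and HTSeq, only reads that mapped to 1 place were counted. With that processing, reads that fit more than 1 copy would be missing, and the 3 rows would rest on the remaining bases. The 3 rows are therefore given below one by one and as their sum, and the level of 1 copy against another is uncertain.

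The copies also share sequence just upstream of their annotated starts. The stretches at chr9:88956720-88956839 for Bcl2a1a, chr9:89199029-89199148 for Bcl2a1b and chr9:88731931-88732044 for Bcl2a1d are shown as a description. Their part in the expression of the copies was not tested. Each reads 5′ to 3′ on the strand of its gene, and capitals mark the bases in which Bcl2a1d differs from the other two, including a run that Bcl2a1d lacks.
Bcl2a1a: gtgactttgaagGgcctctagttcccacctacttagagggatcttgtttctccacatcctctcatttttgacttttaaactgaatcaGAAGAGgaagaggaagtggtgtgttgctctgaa
Bcl2a1b: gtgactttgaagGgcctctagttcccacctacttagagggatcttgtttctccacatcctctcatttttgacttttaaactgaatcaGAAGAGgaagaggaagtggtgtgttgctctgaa
Bcl2a1d: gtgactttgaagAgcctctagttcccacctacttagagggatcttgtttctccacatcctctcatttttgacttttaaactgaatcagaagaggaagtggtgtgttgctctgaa
Bcl2a1a and Bcl2a1b have the same letters over these 120 bases.

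The unit throughout is the normalized count, a read count of a gene divided by a size factor for its library. Depth ran from 779421 to 7782072 counted reads. The 12 Type 1 libraries held 2216917 to 5078760 reads and replicates 1 and 2 of the IL-4 experiment 5294244 to 7782072, while replicate 3 held 779421 with ACs and 849705 with IL-4 and ACs, where 1 read stands for a normalized count of 5.36 and 5.14. A change was past the threshold when the Benjamini-Hochberg adjusted p of limma was under 0.05 and the change was at least 1.5-fold on log2(normalized count + 1). The 3 comparisons of the Type 1 experiment share the same 3 ACs libraries, and the IL-4 comparison has its own.

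Marker genes of other cells were read in the same libraries, since the RNA is that of a bulk sample in which fewer cells of a type and less RNA per cell cannot be told apart. Of the eosinophil markers Siglecf, Ccr3 and Alox15 were high (means of 1630 to 3237, 2974 to 4498 and 5456 to 11743 over the groups), whereas the granule protein genes Epx and Prg3 had means of at most 14.1 and 17.4. The summed level of 12 eosinophil markers was 17701 to 19157 with ACs, 19474 to 20794 with E. coli, 10968 to 12493 with IFN-γ, 16389 to 18960 with both, and 22700 to 25443 and 25504 to 28366 in the ACs and IL-4 libraries of the IL-4 experiment. Macrophage markers were abundant in every library. Their summed level over 12 genes was 19403 to 24915 with ACs, 10984 to 13593 with E. coli, 31836 to 42136 with IFN-γ, 13201 to 14245 with both, 28612 to 41658 with ACs in the IL-4 experiment and 22766 to 37881 with IL-4, with C1qc and Lyz2 among the highest. These libraries were made after the positive selection for Siglec-F described above. By flow cytometry of all samples, the study reports that the large majority of the cells were viable and were eosinophils. The part of macrophage RNA in the results below was not tested. Of 12 macrophage markers 6 fell with E. coli (5.25% of all genes tested did), and 5 rose (11.4%) and 1 fell (9.96%) with IFN-γ. With both 3 rose (14.7%) and 6 fell (17.2%), and with IL-4 1 fell (0.347%). Of the eosinophil markers 9 were tested with the Type 1 stimuli. There 1 rose (5.05%) and 1 fell with E. coli, 0 rose and 5 fell with IFN-γ, and 1 rose and 2 fell with both. With IL-4 12 were tested, of which 2 rose (0.74%) and 0 fell. The 16 thymocyte markers, those of the cells that were fed, summed to 91.1 to 418.6 per library, and Rag1, Rag2 and Dntt were each at 0 in 13 of 18 libraries. The 8 neutrophil markers had summed means of 1710 to 4398 by group, mostly from Retnlg, and the 4 B cell markers of 21.5 to 66.7.

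With ACs present, Bcl2 and Bcl2a1a fell and Bcl2l1 and Bax rose with IFN-γ. E. coli lowered Bcl2l11 and raised Bax. IFN-γ and E. coli together lowered Bcl2 and Bcl2a1a and raised Mcl1. No member passed the threshold with IL-4. With E. coli 1 member was called higher (5.05% of 10166 genes tested were) and 1 lower (5.25%), and the groups did not overlap for 8 of 10 (38.3% of genes). With IFN-γ 2 were called higher (11.4% of genes) and 2 lower (9.96%), and 5 did not overlap (42.9%). With both 1 was called higher (14.7%) and 2 lower (17.2%), and 4 did not overlap (48.8%). With IL-4 none of 10 was called higher (0.74% of 10669 genes) or lower (0.347%) by limma, 3 had an unadjusted p under 0.05, edgeR and DESeq2 on recovered reads each called 1, Bcl2a1a, and 3 did not overlap (17.3%). The median log2 change over the 10 members was 0.26 with E. coli, 0.17 with IFN-γ, 0.22 with both and 0.18 with IL-4, beside medians over all genes of -0.0040, -2.07e-06, -0.047 and -0.0084. With 10 members, counts of 1 or 2 are near what these shares of all genes give, and the account below is of single genes.

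**Figure D1:**
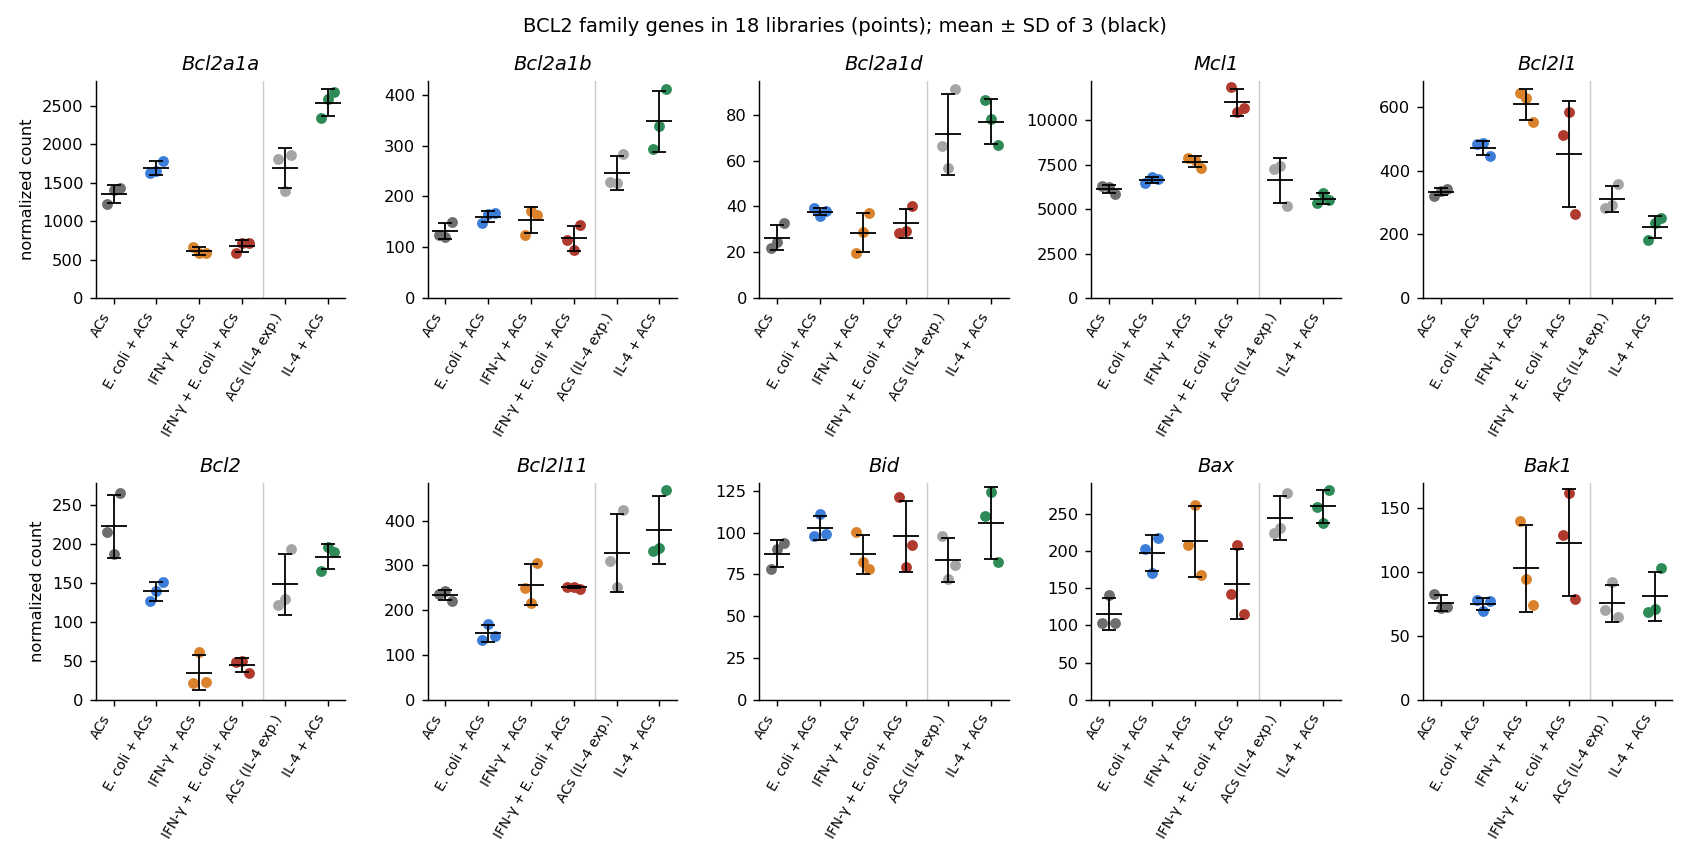
Normalized count (vertical axis, from 0) of each of the 10 BCL2 family genes in the 18 libraries, by group; points are libraries, black bars the mean ± SD of 3, and the grey line parts the Type 1 experiment from the IL-4 experiment. Bcl2 lies at 21.1 to 60.8 in the IFN-γ libraries against 186.8 to 265.9 with ACs alone, and Mcl1 at 10465 to 11883 with both stimuli against 5864 to 6294.

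Bcl2a1a was the most abundant of the A1 rows. With ACs alone its normalized count was 1219, 1408 and 1431 (1353 ± 116, SD, n = 3). With IFN-γ it was 668.8, 584.6 and 586.9 (613.4 ± 47.9, SD, n = 3), and with IFN-γ and E. coli 590.2, 720.7 and 714.7 (675.2 ± 73.7, SD, n = 3). All 6 libraries with IFN-γ were lower than all 6 without it. The fall was 2.202-fold with IFN-γ (log2 change -1.14, 95% interval -1.38 to -0.89, limma adjusted p = 4.83e-07) and 2.005-fold with both (-1.004, -1.25 to -0.76, limma adjusted p = 1.59e-06), and it was called in each of 16 alternatives to the fit. With E. coli the values were 1627, 1656 and 1787 (1690 ± 85.3, SD, n = 3), above the ACs libraries without overlap but under the 1.5-fold threshold (1.25-fold, log2 change 0.32, 0.08 to 0.57, limma adjusted p = 0.077).

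In the IL-4 experiment Bcl2a1a was 1804, 1387 and 1866 with ACs alone (1685 ± 261, SD, n = 3) and 2344, 2589 and 2683 with IL-4 (2538 ± 175, SD, n = 3). All IL-4 values lay above all ACs values. The difference was 1.52-fold (log2 change 0.60, 95% interval 0.28 to 0.92) and missed the threshold in limma (adjusted p = 0.117). It was called by edgeR (adjusted p = 0.049), by DESeq2 (adjusted p = 0.011), in a fit of all 18 libraries (adjusted p = 0.0084) and without the shallow replicates 3, an alternative chosen after the depths were seen (log2 change 0.64, limma adjusted p = 0.0093). Over its alternatives the adjusted p ranged from 0.0015 to 0.39.

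Bcl2a1b did not follow Bcl2a1a under IFN-γ. Its normalized counts were 123.6, 121.1 and 150.1 with ACs, 124.0, 171.9 and 164.2 with IFN-γ, 114.0, 95.3 and 143.5 with both and 147.3, 165.1 and 168.0 with E. coli. These ranges overlap between ACs and each stimulus, and the log2 changes were 0.21 (95% interval -0.18 to 0.60), -0.17 (-0.57 to 0.22) and 0.29 (-0.11 to 0.68). With IL-4 the values rose from 227.8, 225.8 and 284.2 to 293.2, 338.3 and 411.2 without overlap, which was 1.41-fold (log2 change 0.49, 0.09 to 0.89, limma adjusted p = 0.41) and not past the threshold. Bcl2a1d was the lowest row, at 19.8 to 40.0 over the Type 1 libraries and 56.8 to 91.1 over the others, from 13 to 149 reads a library, and none of its 4 changes passed the threshold (log2 0.08 to 0.52). Bcl2a1d overlaps the antisense gene Gm10634, which reached a normalized count of at most 10.3, and Bcl2a1b overlaps Gm29094, listed at 0 in every library.

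The 3 rows together held a normalized count of 1511 ± 130 with ACs, 1888 ± 93.5 with E. coli, 795.2 ± 15.05 with IFN-γ and 825.4 ± 84.5 with both (SD, n = 3 each). Their sum fell 1.89-fold with IFN-γ (log2 change -0.92, limma adjusted p = 3.43e-06) and 1.83-fold with both (-0.87, limma adjusted p = 4.44e-06). With E. coli it was 1.25-fold higher (0.32, limma adjusted p = 0.060) and with IL-4 1.49-fold (0.57, limma adjusted p = 0.136), neither past the threshold. Bcl2a1a made up 89.5% ± 0.99 of the sum with ACs and 89.5% ± 0.30 with E. coli, but 77.1% ± 4.5 with IFN-γ and 81.8% ± 3.0 with both (SD, n = 3 each). The lowest share without IFN-γ in that experiment, 88.7%, was above the highest with it, 85.3%. The ratio of Bcl2a1a to Bcl2a1b went from 9.54 to 11.6 in the ACs libraries to 3.40 to 5.39 with IFN-γ. Of the 3 rows, Bcl2a1a alone passed the threshold with IFN-γ. The upstream stretches printed above have the same letters in Bcl2a1a and Bcl2a1b, and whether they have a part in this was not tested.

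**Figure D2:**
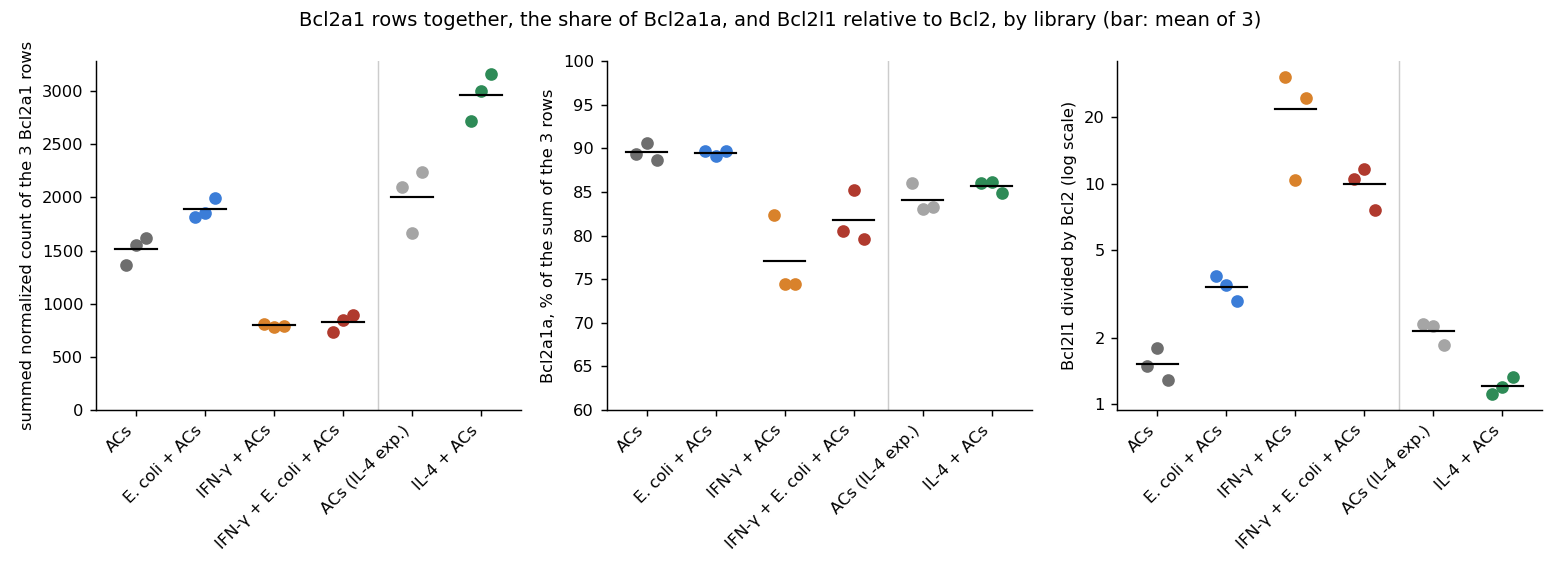
Left, summed normalized count of Bcl2a1a, Bcl2a1b and Bcl2a1d; centre, Bcl2a1a as a percent of that sum (axis from 60 to 100); right, Bcl2l1 divided by Bcl2 (log axis); points are libraries and bars the mean of 3. The sum is 732.7 to 898.2 in the libraries with IFN-γ against 1365 to 1993 in the others of the Type 1 experiment, and the ratio of Bcl2l1 to Bcl2 spans 1.11 to 30.5.

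Mcl1 (chr3:95658788-95663176), whose protein restrains BAK and is essential for survival of many blood cells, had the largest normalized counts of the members. Since CEL-Seq2 counts ends, this order is of counted reads and not of levels per length. Its values were 6294, 6253 and 5864 with ACs, 6479, 6808 and 6676 with E. coli, 7910, 7794 and 7334 with IFN-γ and 11883, 10465 and 10680 with both. Each stimulus alone lay above ACs without overlap, and the 3 libraries with both lay above all others. The change was 1.08-fold with E. coli (log2 change 0.12, 95% interval -0.08 to 0.32, limma adjusted p = 0.49), 1.25-fold with IFN-γ (0.32, 0.13 to 0.52, limma adjusted p = 0.015), which is under the 1.5-fold threshold, and 1.79-fold with both (0.84, 0.64 to 1.04, limma adjusted p = 9.73e-07). The last was called in all 17 alternatives. With IL-4 Mcl1 was 5368, 5937 and 5505 against 7292, 7452 and 5184 with ACs, ranges that overlap through the shallow replicate 3 with ACs (log2 change -0.23, -0.57 to 0.11). Without the shallow libraries the difference was -0.38 (limma adjusted p = 0.033), still under 1.5-fold.

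Bcl2l1 (chr2:152780668-152831728), which encodes BCL-XL, rose with IFN-γ. Its normalized counts were 321.2, 336.9 and 343.4 with ACs and 643.7, 629.3 and 552.0 with IFN-γ. The groups were well apart and the rise was 1.82-fold (log2 change 0.86, 95% interval 0.44 to 1.28, limma adjusted p = 0.0033), called in all 17 alternatives. With E. coli the values were 482.2, 486.4 and 446.9, again above ACs without overlap (1.41-fold, log2 change 0.50, 0.08 to 0.92, limma adjusted p = 0.115). With both they were 510.3, 582.7 and 263.5, of which 2 lay above all ACs libraries and 1 below them (log2 change 0.36, -0.06 to 0.78, limma adjusted p = 0.169). Without that library the change was 0.71 (limma adjusted p = 2.73e-04) and past the threshold. It was not called in 16 of 17 alternatives, over which it ranged from 0.14 to 0.71, with adjusted p up to 0.61. With IL-4 Bcl2l1 was 183.7, 234.5 and 251.9 against 282.7, 292.7 and 359.2 with ACs, lower without overlap by 1.40-fold but not past the threshold (log2 change -0.48, -0.89 to -0.08, limma adjusted p = 0.43).

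Bcl2 (chr1:106538178-106714274) showed the largest change of any member. With ACs alone its normalized count was 214.7, 186.8 and 265.9 (222.4 ± 40.1, SD, n = 3). With IFN-γ it was 21.1, 60.8 and 22.6 (34.8 ± 22.5, SD, n = 3), from 16, 53 and 11 reads, and with both 48.5, 50.1 and 34.5 (44.3 ± 8.57, SD, n = 3). The second IFN-γ library was nearly 3 times the other two, and all 6 libraries with IFN-γ were well below the rest. The fall was 6.95-fold with IFN-γ (log2 change -2.80, 95% interval -3.43 to -2.16, limma adjusted p = 9.67e-07) and 4.94-fold with both (-2.30, -2.94 to -1.67, limma adjusted p = 7.15e-06), and both were called in all 17 alternatives. With E. coli Bcl2 was 126.4, 139.8 and 151.3 (139.2 ± 12.5, SD, n = 3), below all ACs libraries by 1.58-fold (log2 change -0.66, -1.30 to -0.02, limma adjusted p = 0.174). That change passed the threshold in 2 of 17 alternatives, with array weights (adjusted p = 0.048) and in DESeq2 (adjusted p = 0.044). With IL-4 it was 165.1, 195.5 and 190.2 against 121.8, 129.2 and 193.0 with ACs, where the shallow replicate 3 with ACs, with 36 reads, lies among the IL-4 values (log2 change 0.34, -0.14 to 0.82).

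Within the pro-survival genes, Bcl2l1 was 1.53 ± 0.26 times Bcl2 with ACs, 3.42 ± 0.43 times with E. coli, 21.8 ± 10.3 times with IFN-γ and 9.93 ± 2.06 times with both (SD, n = 3 each). No 2 of these ranges overlap except those of IFN-γ (10.4 to 30.5) and both (7.64 to 11.6). In the IL-4 experiment the ratio was 2.15 ± 0.25 with ACs and 1.21 ± 0.11 with IL-4 (SD, n = 3 each), also without overlap (1.86 to 2.32 and 1.11 to 1.32). These ratios of counted reads follow from the values above and were not tested.

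**Figure D3:**
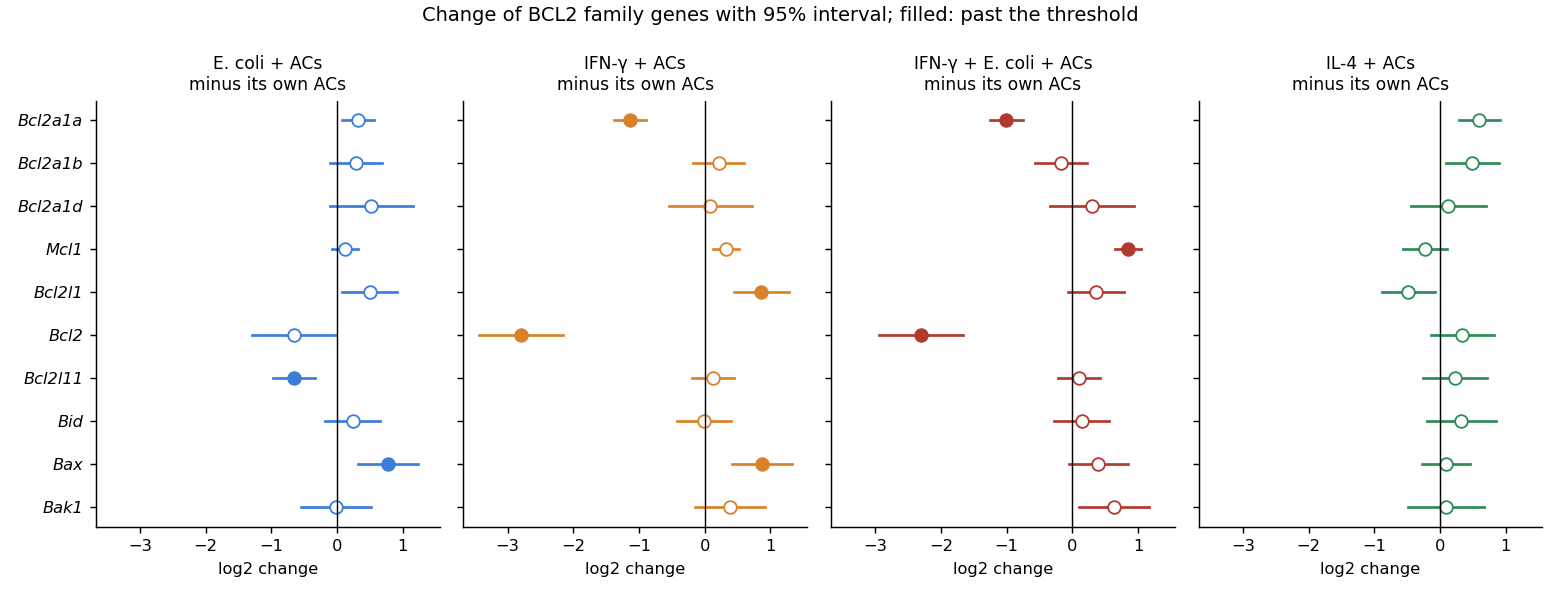
Log2 change of each BCL2 family gene from the ACs libraries of the same experiment, on log2(normalized count + 1), with its 95% interval from limma; filled points are past the threshold. Bcl2 at -2.80 and -2.30 and Bcl2a1a at -1.14 and -1.004 stand lowest with IFN-γ and with both, and no point is filled with IL-4.

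Of the BH3-only genes, Bcl2l11 (chr2:128126038-128162547), which encodes BIM, a binder of all pro-survival members, fell with E. coli. Its normalized counts were 236.6, 243.1 and 221.0 with ACs and 133.9, 170.1 and 142.5 with E. coli. The groups were apart and the fall was 1.57-fold (log2 change -0.65, 95% interval -0.98 to -0.33, limma adjusted p = 0.0071). It was called in 16 of 17 alternatives and missed the fold threshold without the first E. coli library (log2 change -0.58, adjusted p = 0.046). With IFN-γ it was 250.6, 215.5 and 305.8, which overlaps ACs (log2 change 0.13, -0.20 to 0.45), and with both 250.9, 252.9 and 248.4 (0.10, -0.22 to 0.43). With IL-4 it was 331.4, 338.3 and 467.7 against 309.1, 250.7 and 423.6 (0.22, -0.27 to 0.71). Mcl1 was 45.1 ± 4.4 times Bcl2l11 with E. coli and 43.9 ± 3.1 times with both, against 26.3 ± 0.49 with ACs and 30.6 ± 6.2 with IFN-γ (SD, n = 3 each), the first through less Bcl2l11 and the second through more Mcl1.

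Bid (chr6:120891930-120916853), whose protein is cut by caspase-8 and carries the death receptor signal to mitochondria, did not pass the threshold in any comparison. Its normalized counts lay between 72.4 and 124.4 over all 18 libraries. The log2 changes were 0.24 with E. coli (95% interval -0.18 to 0.65), -0.01 with IFN-γ (-0.43 to 0.40), 0.14 with both (-0.27 to 0.56) and 0.32 with IL-4 (-0.20 to 0.85), so changes within these bounds remain possible. Bid overlaps Bcl2l13 on the opposite strand, and whether reads were counted by strand is not given in the sources used here.

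Bax (chr7:45461697-45466898), which encodes an effector, rose with E. coli and with IFN-γ. Its normalized counts were 103.3, 140.8 and 102.8 with ACs, 203.4, 170.1 and 217.3 with E. coli, 208.4, 262.5 and 168.3 with IFN-γ and 142.6, 207.7 and 115.9 with both. Each stimulus alone lay above ACs, while the values with both overlapped them. The rise was 1.83-fold with IFN-γ (log2 change 0.87, 95% interval 0.42 to 1.32, limma adjusted p = 0.0053), called in all 17 alternatives, and 1.71-fold with E. coli (0.77, 0.32 to 1.23, limma adjusted p = 0.022). The E. coli call was lost when replicate 1 or 3 of the ACs or of the E. coli libraries was left out (adjusted p = 0.077 to 0.095). With both the change was 0.40 (-0.06 to 0.85, limma adjusted p = 0.157), and 0.59 (adjusted p = 0.045) without the third library of that group. This change with both was not called in 16 of 17 alternatives, over which it ranged from 0.17 to 0.59, with adjusted p up to 0.56. With IL-4 Bax was 260.1, 237.6 and 282.7 against 224.1, 231.2 and 278.8 with ACs (0.09, -0.28 to 0.46). Bax overlaps Gm45808, listed at 0 in every library.

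Bak1 (chr17:27019810-27029009), the other effector, was 83.0, 71.3 and 72.6 with ACs and 77.9, 69.5 and 77.4 with E. coli, with a log2 change of -0.01 (95% interval -0.55 to 0.52). With IFN-γ it was 139.8, 94.0 and 73.9 (0.39, -0.15 to 0.92) and with both 128.3, 161.2 and 78.6 (0.63, 0.10 to 1.17, limma adjusted p = 0.056). In both groups with IFN-γ 2 libraries lay above all ACs libraries and 1 among them. The change with both was past the threshold in 5 of 17 alternatives, among them edgeR (adjusted p = 0.028), DESeq2 (adjusted p = 0.023) and the fit without the third library of that group (log2 change 0.92, adjusted p = 0.0061). That library, with 3410074 reads, was also the low one for Bcl2l1 and Bax. With IL-4 Bak1 was 68.4, 71.1 and 102.8 against 69.9, 91.9 and 64.3 (0.09, -0.48 to 0.66). Bak1 overlaps Ggnbp1, which reached at most 17.3.

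Whether the effect of E. coli depended on IFN-γ was tested by the interaction term, which is the change with both minus the sum of the single changes. As E. coli came after IFN-γ in the group with both, order and time of exposure cannot be told apart from the combination. Of the members 2 were past the threshold, both in the lower direction (4.28% of 10166 genes were called lower and 3.16% higher), namely Bax and Bcl2l1. For Bax the interaction was -1.24 on the log2 scale (95% interval -1.88 to -0.60, limma adjusted p = 0.017) and for Bcl2l1 -1.0005 (-1.60 to -0.40, limma adjusted p = 0.037). For both genes the mean with both stimuli was below the mean with either stimulus alone, but for Bcl2l1 the order against E. coli rests on the third library with both (263.5), since the other two (510.3 and 582.7) lay above all E. coli libraries. Bax kept the call in 19 of 23 alternatives and Bcl2l1 in 13 of 23, with adjusted p up to 0.058 and 0.088. Without the third library with both stimuli the interaction was -1.05 for Bax (adjusted p = 0.034) and -0.65 for Bcl2l1 (adjusted p = 0.025). For Mcl1 the term was 0.40 (0.12 to 0.68, limma adjusted p = 0.074), for Bcl2l11 0.63 (0.17 to 1.09, limma adjusted p = 0.084) and for Bcl2 1.15 (0.25 to 2.06, limma adjusted p = 0.110). The Bcl2 term was past the threshold only without the second IFN-γ library (1.63, adjusted p = 0.0055). It was not called in the other 22 of 23 alternatives, with adjusted p up to 0.25. For Bcl2a1b the term was -0.67 (-1.23 to -0.12, limma adjusted p = 0.134) and for Bcl2a1a -0.19 (-0.54 to 0.16, limma adjusted p = 0.55). Of the 10 members 6 had an unadjusted p under 0.05 for the interaction, as did 2279 of 10166 genes.

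**Figure D4:**
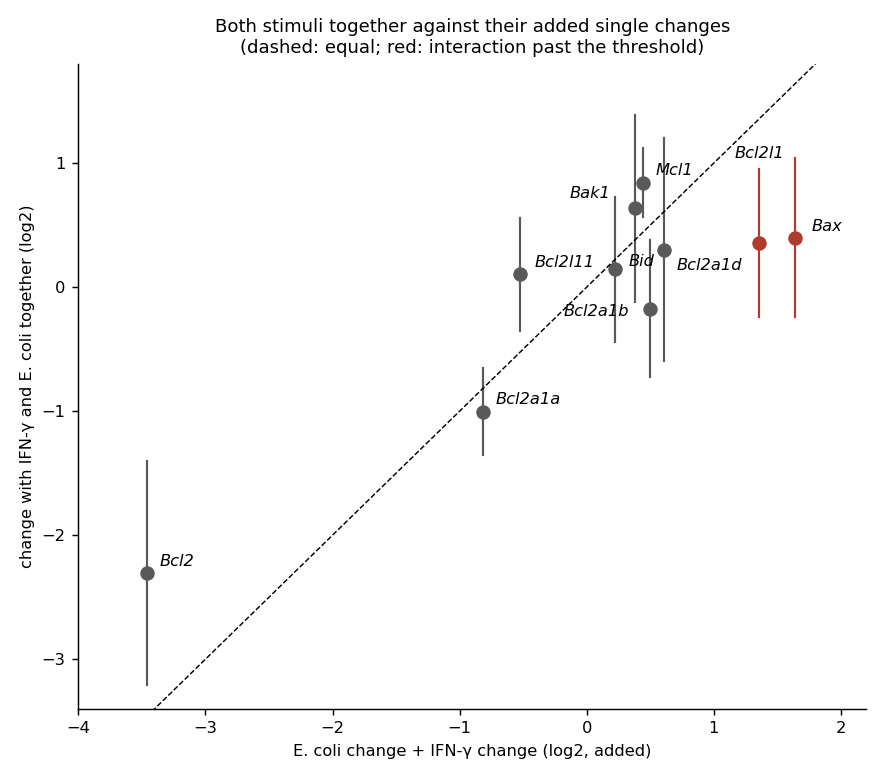
Change of each BCL2 family gene with IFN-γ and E. coli together (vertical axis) against the sum of its changes with E. coli alone and IFN-γ alone (horizontal axis), both log2; the dashed line marks equality, vertical lines are the 95% interval of the interaction term and red marks terms past the threshold. Bax (-1.24) and Bcl2l1 (-1.0005) lie below the line. The intervals of Bcl2 (1.15), Bcl2l11 (0.63), Mcl1 (0.40) and Bcl2a1b (-0.67) do not reach the line either. Their limma adjusted p were 0.110, 0.084, 0.074 and 0.134, so these terms were not past the threshold.

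The effect of IL-4 was set against that of each Type 1 stimulus in a fit of all 18 libraries, with each effect taken from its own ACs libraries. Against E. coli no member was past the threshold by limma (4.43% of 10414 genes were, in either direction), 4 had an unadjusted p under 0.05, and edgeR called 2 and DESeq2 3. Against IFN-γ 3 were past it (14.3% of genes) and against both 4 (20.4%). The Bcl2 effect was 3.13 higher on the log2 scale with IL-4 than with IFN-γ (95% interval 2.26 to 4.004, limma adjusted p = 1.75e-05) and 2.64 higher than with both (1.77 to 3.51, limma adjusted p = 8.99e-05). The Bcl2a1a effect was 1.74 higher than with IFN-γ (1.37 to 2.11, limma adjusted p = 4.88e-07) and 1.60 higher than with both (1.24 to 1.97, limma adjusted p = 1.07e-06). The Bcl2l1 effect was lower, by -1.34 against IFN-γ (-1.95 to -0.74, limma adjusted p = 0.0027) and by -0.84 against both (-1.45 to -0.24, limma adjusted p = 0.043), and the Mcl1 effect was lower by -1.07 against both (-1.42 to -0.72, limma adjusted p = 7.75e-05). Each of these kept its call in every alternative except that of Bcl2l1 against both, which kept it in 11 of 23. The stimulus and the experiment cannot be told apart in these differences.

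The ACs libraries of the experiments were themselves unlike. Of the members 3 were called higher in the IL-4 experiment (10.7% of 10592 genes were) and 0 lower by limma, with 6 at an unadjusted p under 0.05. Bax was 2.12-fold higher (224.1 to 278.8 against 102.8 to 140.8, log2 difference 1.08, 95% interval 0.68 to 1.49, limma adjusted p = 0.0024), Bcl2a1d 2.63-fold (1.40, 0.77 to 2.02, limma adjusted p = 0.0065) and Bcl2a1b 1.86-fold (0.90, 0.53 to 1.27, limma adjusted p = 0.0043). Bcl2 was lower by -0.60 (-1.07 to -0.13, limma adjusted p = 0.067), which edgeR (adjusted p = 0.010) and DESeq2 (adjusted p = 0.012) called. With ACs alone Bax in the IL-4 experiment was thus above all E. coli libraries of the Type 1 experiment and overlapped those with IFN-γ. Apart from Bnip3, Pmaip1, Bmf, Bbc3 and Bad below, levels are otherwise set side by side within an experiment only.

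Within the Type 1 experiment, by mean level, Bcl2a1a was lowest with IFN-γ and then with both, whose ranges overlap, followed by ACs and E. coli, each apart from the group before it. Mcl1 went from ACs to E. coli, IFN-γ and both, with all neighbours apart. Bcl2 was lowest with IFN-γ and then with both, which overlap, followed by E. coli and ACs, each apart from the group before it. Bcl2l1 was lowest with ACs, followed by both and E. coli, of which neighbours overlap, and highest with IFN-γ, apart from E. coli. Bcl2l11 was lowest with E. coli, apart from ACs, followed by both, apart from ACs, and by IFN-γ, which overlaps both. For Bcl2a1b, Bcl2a1d, Bid, Bax and Bak1 every neighbour in the order overlapped.

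Over the 12 libraries of the Type 1 experiment, and as a description with groups and libraries in common, the genes whose log2 values ran closest to a member's among 6747 genes were Hp (Pearson r = 0.98) for Bcl2a1a, Pfkp (0.99) for Mcl1, Cideb (0.98) for Bcl2, Fxr2 (0.95) for Bcl2l1, Arrdc3 (0.93) for Bcl2l11, Sin3b (0.92) for Bax, Eif1 (0.90) for Bak1, Mfn2 (0.87) for Bid and 5031425E22Rik (0.82) for Bcl2a1b. Bcl2a1d was below the mean of 50 required. Haptoglobin, encoded by Hp, is an acute phase protein stored in granulocytes, and Pfkp encodes a phosphofructokinase of glycolysis.

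Other genes of the family, a list of 16 of which 8 were tested with the Type 1 stimuli and 9 with IL-4, held 2 that fell with E. coli (5.25% of all genes tested did), 2 that rose with IFN-γ (11.4%), and 3 that rose (14.7%) and 3 that fell (17.2%) with both stimuli. With IL-4 0 were called by limma, edgeR or DESeq2, and 1 had an unadjusted p under 0.05. Bnip3, which encodes a mitophagy receptor of the outer mitochondrial membrane, had a mean of 335.1 ± 16.4 with ACs, 2844 ± 155 with IFN-γ and 5069 ± 652 with both (SD, n = 3 each), 8.46-fold and 15.02-fold higher (limma adjusted p = 4.96e-13 and 1.54e-14). Pmaip1, encoding NOXA, a BH3-only binder of MCL1 and A1, was at 187.3 ± 20.1, 300.9 ± 52.4 and 618.0 ± 77.0 in the same groups, 1.59-fold and 3.28-fold higher (limma adjusted p = 0.0048 and 1.29e-07). Bmf, a BH3-only gene, fell 2.59-fold with E. coli and 4.95-fold with both (limma adjusted p = 0.038 and 2.56e-04), and Bbc3, encoding PUMA, fell 2.46-fold with E. coli (limma adjusted p = 0.015). Bad fell 2.24-fold with both (limma adjusted p = 0.0013). With ACs alone in the IL-4 experiment Bnip3 was at 5202 ± 1897 and Pmaip1 at 551.6 ± 74.1 (SD, n = 3 each). These levels were near the means with IFN-γ and E. coli in the Type 1 experiment. Bmf, Bbc3 and Bad were at 39.8, 47.1 and 116.1 there, against 80.6, 42.6 and 108.5 with ACs in the Type 1 experiment. The cause of these differences between the experiments was not tested. The list's median log2 change was -0.07, 0.24, 0.17 and -0.31 in the 4 comparisons.

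Among the genes downstream of the mitochondria, a list of 19 with caspases and inhibitors of apoptosis of which 17 were tested (18 in the IL-4 experiment), 1 fell with E. coli (5.25% of all genes), 2 rose (11.4%) and 1 fell (9.96%) with IFN-γ, and 5 rose (14.7%) and 2 fell (17.2%) with both. With IL-4 0 were called by limma, edgeR or DESeq2, with 1 at an unadjusted p under 0.05. Cycs, encoding cytochrome c, rose 2.15-fold with IFN-γ and 2.01-fold with both (limma adjusted p = 1.41e-06 and 3.04e-06). With both, Vdac1 rose 2.23-fold and Dffa, encoding the inhibitor of the caspase-activated DNase, fell 2.203-fold (limma adjusted p = 8.46e-06 and 0.0021). Casp6 fell 1.89-fold and Vdac2 rose 1.58-fold with IFN-γ (limma adjusted p = 0.018 and 5.23e-05), and Casp2 fell 1.62-fold with E. coli (limma adjusted p = 0.011). The list's median log2 changes were -0.00040, -0.04, -0.0036 and 0.04.

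Among death receptors and their adaptors, 14 listed and 13 tested, 2 rose with E. coli (5.05% of all genes did), 6 with IFN-γ (11.4%) and 7 with both (14.7%), and none fell in these 3 comparisons. No gene of the list was called with IL-4 by limma, edgeR or DESeq2, with 2 at an unadjusted p under 0.05. Cflar, encoding c-FLIP, the inhibitor of caspase-8 at the death receptor, was 394.1 ± 57.7 with ACs, 702.2 ± 23.8 with E. coli, 1044 ± 34.6 with IFN-γ and 1083 ± 112 with both (SD, n = 3 each), rises of 1.79-, 2.66- and 2.75-fold (limma adjusted p = 8.57e-05, 4.89e-08 and 2.06e-08). Tnfrsf1b, a receptor for TNF, rose 3.27-, 2.999- and 3.14-fold in the same order (limma adjusted p = 3.41e-08, 1.99e-08 and 7.84e-09). Tnfsf10, encoding TRAIL, rose 3.57-fold with IFN-γ and 2.57-fold with both, and Mlkl, the effector of necroptosis, 2.38- and 2.02-fold (limma adjusted p = 2.66e-05, 3.86e-04, 6.75e-06 and 4.51e-05). The list's median log2 changes were 0.25, 0.57, 0.70 and -0.03.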

How the data were processed

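RNA sequencing of 18 libraries of eosinophils was examined, with groups and replicate numbers from the sample labels. The ACs libraries were placed in the Type 1 or the IL-4 experiment by the naming of their descriptions. As a signal, the authors deposited normalized counts, each a read count over a DESeq2 size factor. Reads were mapped to GRCm38 with TopHat2 2.1.0, and reads mapped to 1 place were counted with HTSeq 0.6.1. The submitters' processing notes give DESeq2 1.26.0. The study's methods name other versions of it, and in a further section also fastp and STAR, and which of these made the deposited values was not settled here. Values were whole multiples of 1 step in each library, so reads were recovered for 100.0% of values within 0.006 plus the rounding of the step, and 0 columns were left unassigned. A value under 3 reads cannot be told from 0. Symbols were matched for 54409 of 54446 identifiers without the version.

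Limma 3.58.1 in R 4.3.3 (lmFit, eBayes with trend) was fitted on log2(normalized count + 1) for genes with a mean of at least 10: the Type 1 experiment on its 12 libraries, IL-4 on its 6, differences of effects on all 18. A call needed a Benjamini-Hochberg adjusted p under 0.05 over all genes tested and 1.5-fold. Intervals are for single genes and are not adjusted. The alternatives were a pseudocount of 5, no filter, a higher minimum mean (50), a model with a replicate block, scaling to one upper quartile, weights per library (array weights), count tests on the recovered reads (edgeR 4.0.16, DESeq2 1.42.0), no fold threshold, the Bcl2a1 rows summed, all 18 libraries, and each library left out. A fit of the IL-4 experiment without its shallow libraries was added after the depths were seen. The fits were tested on simulated data. The members and lists were chosen with earlier results of these data known. Genes named are the 10 members and, from each list, at most 4 a comparison that were past the threshold without overlap, largest change first, and for each member with a mean of at least 50 the 3 genes with the highest correlation, of which the first is given. Sequences were read with Python 3.11.15, pandas 2.3.3, numpy 2.4.6 and biopython 1.88, and figures drawn with matplotlib 3.10.9. Protein sequences were not used here. Some listed items are not reported here.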

Additional observations from a re-analysis of the deposited data

Results flagged for a closer look

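The effect of E. coli differed with and without IFN-γ for 2 members, by the test of the interaction itself in limma. For Bax the interaction was -1.24 on the log2 scale (adjusted p = 0.017), with a mean normalized count of 115.6 with ACs, 196.9 with E. coli, 213.1 with IFN-γ and 155.4 with both. For Bcl2l1 it was -1.0005 (adjusted p = 0.037), with means of 333.8, 471.8, 608.3 and 452.2 in the same order. The Bcl2l1 values with both stimuli were 510.3, 582.7 and 263.5. Without the last of these libraries the interaction was -0.65 for Bcl2l1 (adjusted p = 0.025) and -1.05 for Bax (adjusted p = 0.034). The call was kept in 13 of 23 alternatives for Bcl2l1 and in 19 of 23 for Bax.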

How the results depend on the processing

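No change of a member called in the report turned direction under any alternative. With 1 library left out, 740 member results kept their side of the threshold, 26 lost a call and 14 gained one, and under the other alternatives 923 kept it, 5 lost a call and 37 gained one. The cause of these moves was not tested. The number of members past the threshold ran from 0 to 2 with E. coli (main 2) and from 3 to 6 with both stimuli (main 3) as 1 library was left out, the 0 without the first E. coli library and the 6 without the third library with both. With IL-4 (main 0) it was 1 by edgeR, by DESeq2, in the fit of all 18 libraries and without the shallow libraries. For the interaction (main 2) it was 1 without a filter and 1 in the fit of all 18 libraries, and 0 to 3 with 1 library left out. For IL-4 against E. coli (main 0) it was 2 with a mean of at least 50, 1 with a common upper quartile, 4 with array weights, 2 by edgeR, 3 by DESeq2, 1 without the shallow libraries and 0 to 1 with 1 library left out. For IL-4 against IFN-γ (main 3) it was 5 with array weights, and between the ACs groups (main 3) 1 with the Bcl2a1 rows summed. The number of all genes past the threshold with IL-4, 116, became 208 without a filter, 745 with array weights, 212 by edgeR, 209 by DESeq2, 221 in the fit of all 18 libraries, 656 without the shallow libraries and 47 to 130 with 1 library left out. The interaction count of 756 became 495 in the fit of all 18 libraries and 400 to 1026 with 1 left out, IL-4 against E. coli went from 461 to 1431 with array weights and 711 by DESeq2, IL-4 against IFN-γ from 1486 to 2423 with array weights, and the ACs groups from 2038 to between 1264 and 2734 with 1 left out. Same-numbered libraries did not deviate together (r of -0.087 to 0.090 over 21 pairs). With 3 libraries a group this cannot show whether they shared a mouse or a preparation, and the labels do not pair them. With the replicate block the count with IL-4 was 74, and Bak1 was then past the threshold with both stimuli (adjusted p = 0.040). Without the shallow ACs library of the IL-4 experiment 130 genes were called with IL-4, and without the shallow IL-4 library 105.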
